A study of Mus musculus with 9 samples.

Results

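The Serpina1 and Serpina3 clusters of serine protease inhibitors were examined in liver mRNA of mice with fibrosis and after spontaneous recovery. Members were taken by gene symbol from a set list of 10, Serpina1a, Serpina1b, Serpina1c, Serpina1d, Serpina1e, Serpina3c, Serpina3g, Serpina3k, Serpina3m and Serpina3n. These were 10 of the 21873 genes listed in the expression table. All 10 were among the 14094 genes that passed the filter on low values, an FPKM of 0.1 or more on average over the 9 libraries. Serpina1f, Serpina3a, Serpina3b, Serpina3f, Serpina3i and Serpina3j are also in the expression table but were not members. They were read with the other clade A serpins, and the cluster sums and shares leave them out.

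Livers of male C57BL/6 mice, 8 weeks old at the start, were compared in 3 groups of 3 mice. The TAA group received thioacetamide (TAA), a hepatotoxin that is activated in hepatocytes, by intraperitoneal injection every 3 days for 8 weeks. The control group received normal saline for the same 8 weeks, and both groups were killed 3 days after the last dose. The recovery group received the same TAA course and then another 8 weeks without injections. Recovery mice were therefore 8 weeks older than the others at collection, and no control group of their age was used here, so recovery and age cannot be told apart in comparisons with them. The TAA group was set against the control group for what differs in the fibrotic liver, the recovery group against the TAA group for what changes once injections stop, and recovery mice against control mice for what still differs afterwards. Values are FPKM, fragment counts corrected for gene length and for the mapped depth of the library. Depth was estimated from the spacing of the lowest FPKM and came to 27.0, 35.6 and 32.9 M fragments in control mice, 40.5, 39.0 and 38.6 M in TAA mice and 34.6, 40.7 and 40.6 M in recovery mice. The labels name separate libraries of each group, and p-values measure the spread between these libraries. Across genes, libraries of the same group had r of 0.975 to 0.987, control and recovery libraries 0.971 to 0.980 and TAA and recovery libraries 0.909 to 0.919, with control and TAA libraries lowest (from 0.894), where genes are not independent replicates.

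Serpins are suicide inhibitors. The target protease cuts an exposed reactive centre loop near the end of the protein, and the cleaved loop inserts into a beta sheet of the serpin, which drags the bound enzyme along and traps it. Hepatocytes are the main source of the Serpina1 products, the alpha-1-antitrypsins of plasma. Alpha-1-antitrypsin is known for inhibiting neutrophil elastase, and which of the mouse Serpina1 genes share this target was not examined here. Serpina3 genes are the mouse relatives of human alpha-1-antichymotrypsin, an acute phase protein, and the family was expanded in rodents by gene duplication, with the loop as its most variable stretch.

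Both clusters lie on mouse chromosome 12 (GRCm38). The transcripts used for the 5 Serpina1 members span 229 kb, at chr12:103728156-103956898 on the minus strand, in the order Serpina1b, Serpina1d, Serpina1a, Serpina1c and Serpina1e. After a gap of 189 kb the 5 Serpina3 members span 268 kb, at chr12:104146382-104414329, with Serpina3c on the minus strand and Serpina3g, Serpina3k, Serpina3m and Serpina3n on the plus strand. The listed loci are chr12:103853589-103863562 (Serpina1a, ENSMUSG00000066366), chr12:103728156-103863621 (Serpina1b, ENSMUSG00000071178), chr12:103894926-103904887 (Serpina1c, ENSMUSG00000079015), chr12:103763594-103773592 (Serpina1d, ENSMUSG00000071177) and chr12:103946931-103958975 (Serpina1e, ENSMUSG00000072849). In the Serpina3 cluster they are chr12:104146382-104153870 (Serpina3c, ENSMUSG00000066361), chr12:104236245-104241939 (Serpina3g, ENSMUSG00000041481), chr12:104338486-104346144 (Serpina3k, ENSMUSG00000058207), chr12:104338486-104394257 (Serpina3m, ENSMUSG00000079012) and chr12:104406729-104414329 (Serpina3n, ENSMUSG00000021091). Coding sequences of the GENCODE M21 transcripts were 96.3% (Serpina1b and Serpina1e) to 98.5% (Serpina1a and Serpina1c) identical over the 10 Serpina1 pairs. Over the 10 Serpina3 pairs, identity ran from 80.4% (Serpina3g and Serpina3k) to 91.7% (Serpina3k and Serpina3m). The Serpina3g transcript used has a coding sequence of 744 bases, against 1251 to 1254 in the other Serpina3 members. Its pairs, the lowest among them, are therefore compared over a part of the coding sequence only.

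The stretch that codes for the reactive centre loop is shown for each member, since it is where the paralogs differ most and where their targets are set. It lies in exon 5 of each transcript. Capitals mark bases that are not shared by all 5 genes of the cluster in an alignment. In the Serpina1 cluster these stretches are on the minus strand, at chr12:103853765-103853821 (Serpina1a), chr12:103728332-103728388 (Serpina1b), chr12:103895102-103895158 (Serpina1c), chr12:103763770-103763826 (Serpina1d) and chr12:103947108-103947164 (Serpina1e). Sequences are from GENCODE M21 transcripts.
Serpina1a: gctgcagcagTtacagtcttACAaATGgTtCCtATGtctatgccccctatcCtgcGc
Serpina1b: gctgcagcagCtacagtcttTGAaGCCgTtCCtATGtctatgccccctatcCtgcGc
Serpina1c: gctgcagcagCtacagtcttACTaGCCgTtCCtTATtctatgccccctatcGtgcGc
Serpina1d: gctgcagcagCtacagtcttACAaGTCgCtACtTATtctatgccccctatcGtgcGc
Serpina1e: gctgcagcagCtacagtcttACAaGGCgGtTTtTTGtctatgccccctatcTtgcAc
Of these 57 bases, 15 were not shared by the 5 genes. Identity in the loop was 82.5% (Serpina1a and Serpina1e) to 93.0% (Serpina1c and Serpina1d), below the identity of the whole coding sequences in each of these pairs.

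The Serpina3 loops are at chr12:104147322-104147378 on the minus strand (Serpina3c) and, on the plus strand, at chr12:104241081-104241146 (Serpina3g), chr12:104345278-104345337 (Serpina3k), chr12:104393778-104393843 (Serpina3m) and chr12:104413457-104413522 (Serpina3n). Lengths differ, and a base that faces a gap in another member is also in capitals.
Serpina3c: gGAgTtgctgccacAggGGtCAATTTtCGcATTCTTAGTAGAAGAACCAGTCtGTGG
Serpina3g: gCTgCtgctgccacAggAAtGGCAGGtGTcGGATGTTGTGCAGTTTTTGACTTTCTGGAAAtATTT
Serpina3k: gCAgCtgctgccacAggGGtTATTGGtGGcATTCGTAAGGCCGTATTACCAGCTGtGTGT
Serpina3m: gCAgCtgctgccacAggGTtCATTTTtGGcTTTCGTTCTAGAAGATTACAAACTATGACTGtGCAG
Serpina3n: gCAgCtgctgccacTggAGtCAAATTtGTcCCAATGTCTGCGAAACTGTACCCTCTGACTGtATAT
Loop identity among Serpina3 members was 40.4% (Serpina3c and Serpina3g) to 73.7% (Serpina3c and Serpina3m), over aligned bases without gaps.

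The likeness of the paralogs bears on every Serpina1 value, because the authors counted reads per gene and a read can fit several genes. How such reads were treated is not given in the sources used here. Of all 150-base windows, the length of a read, 49.5% of the windows of Serpina1a and of Serpina1c were found in the transcripts of no other gene. This share was 78.8% for Serpina1b, 76.7% for Serpina1d and 90.6% for Serpina1e. Serpina1a and Serpina1c shared 50.5% of their windows with each other. The split between these paralogs is therefore uncertain, least so for Serpina1e. Windows of Serpina3c, Serpina3g and Serpina3n were all their own (100%), and for Serpina3k and Serpina3m the share was 99.7%. Gene models overlap as well. The Serpina1b locus in the table ends at chr12:103863621 and covers Serpina1d and Serpina1a, and it is the member whose locus differs from GENCODE M21, where it ends at chr12:103830373. The Serpina3m model starts at chr12:104338486, the start of Serpina3k, and covers that gene, so reads of Serpina3k and Serpina3m may also have been divided by the counting.

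Sequence around the start was searched for motifs of factors known to act on liver or acute phase genes, since most members moved together in the comparisons that follow. RefSeq promoters (GRCm38.p6) of 250 bases before to 50 after the start were at hand for 8 of the 10 members, all but Serpina3k and Serpina3m. The upstream 250 bases of the Serpina1 genes were 92.1% to 98.0% identical. TGTTTGC, a core bound by forkhead factors, was present on either strand in 5 of 5 Serpina1 promoters, against 5.07% of all 32851 promoters of this length. Its neighbour stretches are given 5′ to 3′ with the match in capitals, on the minus strand, at chr12:103863641-103863697 (Serpina1a), chr12:103738216-103738272 (Serpina1b), chr12:103904978-103905034 (Serpina1c), chr12:103773650-103773706 (Serpina1d) and chr12:103956976-103957032 (Serpina1e).
Serpina1a: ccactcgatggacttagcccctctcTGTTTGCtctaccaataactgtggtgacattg
Serpina1b: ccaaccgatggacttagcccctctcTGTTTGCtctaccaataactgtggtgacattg
Serpina1c: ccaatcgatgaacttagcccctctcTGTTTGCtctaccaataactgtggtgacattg
Serpina1d: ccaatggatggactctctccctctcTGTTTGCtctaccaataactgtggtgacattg
Serpina1e: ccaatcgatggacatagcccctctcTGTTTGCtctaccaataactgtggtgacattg
The match begins 48 to 59 bases before the RefSeq start in Serpina1a to Serpina1d and 110 bases before it in Serpina1e. GTTAAT, part of the site of HNF1 factors, was found in the same 5 promoters and in that of Serpina3c, against 7.10% of all promoters. TTGCNNAA, a C/EBP type motif, was found in Serpina1a, Serpina1b, Serpina1d and Serpina1e (10.8% of all), though 24 bases after the start in Serpina1a. TGANTCA, an AP-1 type motif, was found in Serpina1a to Serpina1d (7.81% of all). The Serpina1 promoters are near copies of each other, so matches in several of them are not separate observations. TATAAA was found in Serpina3c (13.6% of all). TGTTTAC (3.65% of all) and CAAAGTCCA (0.475% of all) were found in none of the 8. No match in a member overlapped another.

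TTCNNNGAA, the core bound by STAT factors, was found in 1 of the 8 member promoters, that of Serpina3g, and in 8.30% of all promoters. This count is near that share and is not read as a result about the members. Promoters of Serpina3k and Serpina3m were not at hand, so whether the motif is particular to Serpina3g cannot be told. The stretch that holds it lies on the plus strand at chr12:104236089-104236146. It is shown because Serpina3g moved apart from its cluster, and a link of the motif to this was not tested.
Serpina3g: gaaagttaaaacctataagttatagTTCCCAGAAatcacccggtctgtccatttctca
A match describes letters only, and binding was not measured.

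Levels were scaled between libraries before the groups were compared, and this step sets the size of the changes. Each FPKM was divided by a scaling factor for each library (median of ratios), which lowered the TAA group relative to the control group (a shift of −0.64 on the log2 scale), raised the recovery group relative to the TAA group (0.56) and moved the recovery group relative to the control group little (−0.08). Values are scaled FPKM, and fold changes are on the scale of log2(scaled FPKM + 0.1), which draws changes of genes near 0.1 towards 0. They come from means of logs and can differ from the ratio of the group means. A gene was called up-regulated or down-regulated at an adjusted p under 0.05 in limma and a fold change of at least 2. Liver pieces hold many cell types, and in such bulk RNA fewer hepatocytes cannot be told apart from less of an mRNA per hepatocyte.

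All 5 Serpina1 genes and Serpina3k were down-regulated in TAA mice relative to control mice, and Serpina3g was up-regulated. This was 6 of 10 members lower, where 8.02% of all tested genes were (1131 of 14094), and 1 of 10 higher, where 17.0% were (2389). The median log2 fold change of the members was −1.43, against 0.02 over all tested genes. With FPKM as deposited 4 members were lower and 1 was higher (421 and 4382 of all genes). Scaling to equal sums left 3 lower and 1 higher (330 and 5476), scaling to hepatocyte markers 4 and 1 (355 and 5163), and quantile normalization 1 and 1 (1311 and 1597). Serpina1e was lower and Serpina3g was higher, past the threshold, under each of these 4 scalings.

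Serpina1e carried the largest change. Its scaled FPKM was 3423, 3797 and 4320 in the 3 control mice and 382, 62.2 and 136 in the 3 TAA mice. Every TAA mouse lay far below every control mouse, and the TAA mice differed among themselves more than the controls did in proportion. The group means were 3847 ± 451 (SD, n = 3) and 193 ± 167 (SD, n = 3). On the log scale of the fit the TAA group was 25.9-fold lower (log2 fold change −4.69, SE 0.57, adjusted p = 0.00037). The size depended on single mice, with −5.38 without TAA mouse 1 and −4.07 without TAA mouse 2. The log2 fold change was −4.06 with FPKM as deposited, −3.87 with equal sums, −3.92 with hepatocyte scaling and −3.59 with quantile normalization.

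Serpina1b had the highest mean of the Serpina1 genes in the TAA group. Its level was 3433, 3419 and 3400 in control mice and 1395, 1430 and 1265 in TAA mice, with a narrow spread within groups and no overlap. The mean fell from 3417 ± 16.3 to 1363 ± 86.9 (SD, n = 3 each), a log2 fold change of −1.33 (SE 0.13, adjusted p = 0.00015). With quantile normalization the sign turned (0.09), and with FPKM as deposited (−0.69), equal sums (−0.50) and hepatocyte scaling (−0.55) the change was under 2-fold.

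Serpina1a was at 2635, 2539 and 2788 in control mice and 1029, 888 and 858 in TAA mice. All TAA values lay under all control values, with means of 2654 ± 126 and 925 ± 91.0 (SD, n = 3 each). The log2 fold change of −1.52 (SE 0.13, adjusted p = 8.3e-05) was under 2-fold with each of the other scalings, −0.89 as deposited and −0.15 with quantile normalization.
Serpina1c, which shares windows with Serpina1a, was at 2217, 2493 and 2483 in control mice and 878, 547 and 696 in TAA mice. Again the groups did not overlap, with TAA mouse 2 the lowest. The log2 fold change was −1.79 (SE 0.19, adjusted p = 0.00019), with −1.15 as deposited, −0.96 with equal sums, −1.01 with hepatocyte scaling and −0.36 with quantile normalization.
Serpina1d, the least abundant Serpina1 gene in control mice, was at 1517, 1703 and 1611 there and at 407, 375 and 361 in TAA mice. The TAA mice were close to each other and well below the controls. Its log2 fold change of −2.08 (SE 0.11, adjusted p = 1.2e-05) came second in size in the cluster, with −1.44 as deposited and −0.54 with quantile normalization.

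In the Serpina3 cluster, Serpina3k, also named contrapsin, was by far the most abundant gene. It stood at 5173, 6365 and 5735 in control mice and at 1452, 1263 and 1223 in TAA mice. No TAA mouse came near a control mouse, and means were 5758 ± 597 and 1313 ± 123 (SD, n = 3 each). The 4.38-fold lower level (log2 fold change −2.13, SE 0.16, adjusted p = 4.2e-05) kept its direction under the other scalings (−1.49 as deposited, −0.66 with quantile normalization, where it was under 2-fold).

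Serpina3g, also named Spi2A, is an intracellular serpin known from immune cells and was expressed at a low level. Control mice had 3.80, 4.77 and 3.84, and TAA mice had 8.55, 10.1 and 7.53. All TAA mice exceeded all controls, with means of 8.73 ± 1.31 against 4.13 ± 0.552 (SD, n = 3 each). The 2.08-fold rise (log2 fold change 1.06, SE 0.15, adjusted p = 0.00074) lay close to the fold threshold, and without TAA mouse 2 the value was 0.95 and no longer passed it. It also missed the threshold with a pseudocount of 1 (0.92). The other scalings gave larger values, 1.69 with FPKM as deposited, 1.87 with equal sums and 1.82 with hepatocyte markers, and quantile normalization also kept the call.

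Serpina3n, an acute phase serpin known to inhibit granzyme B, was at 154, 181 and 219 in control mice and 91.6, 90.7 and 96.5 in TAA mice. The TAA mice were nearly equal to each other and lay under the controls on this scale, while the groups overlapped in FPKM as deposited. Its log2 fold change of −0.98 (SE 0.13, adjusted p = 0.00065) was just under 2-fold, and it was −0.34 as deposited (adjusted p = 0.074). Without control mouse 1 or TAA mouse 3 it passed the fold threshold, which made 7 members lower.
Serpina3m was at 193, 212 and 200 in control mice and 137, 151 and 132 in TAA mice. These groups did not overlap when scaled but overlapped as deposited. The log2 fold change of −0.53 (SE 0.09, adjusted p = 0.0022) was under 2-fold and turned positive with FPKM as deposited (0.11), quantile normalization (0.30), equal sums (0.30) and hepatocyte scaling (0.25), so its direction rests on the scaling.
Serpina3c was at the limit of detection. Its scaled FPKM was 0, 0.230 and 0.0924 in control mice, 0.212, 0.118 and 0.162 in TAA mice and 0.0725, 0.157 and 0.151 in recovery mice. These values correspond to an estimated 0 to 24 fragments per library, the groups overlapped when scaled, and no difference between TAA and control mice was called (log2 fold change 0.50, SE 0.44, adjusted p = 0.37, and −0.20 with quantile normalization). Its size was unstable, at 0.05 without control mouse 1, 0.91 without control mouse 2 and 1.44 with a pseudocount of 0.01.

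**Figure D1:**
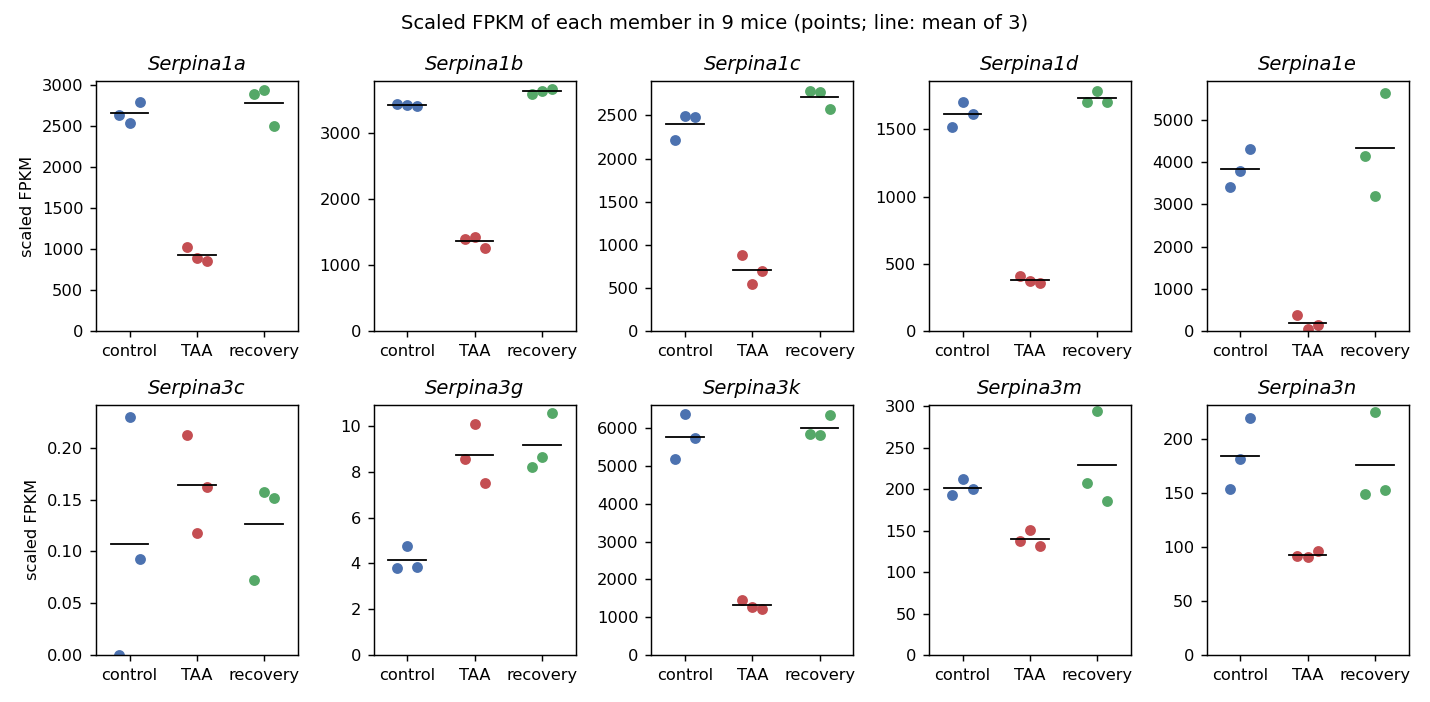
Scaled FPKM (y axis, linear, from 0) of each member in the control, TAA and recovery groups, with 1 point per mouse and a line at the mean of 3. Serpina1e falls from 3423 to 4320 in control mice to 62.2 to 382 in TAA mice and lies at 3195 to 5639 in recovery mice, whereas Serpina3g lies at 8.22 to 10.6 in recovery mice, above the 3.80 to 4.77 of controls.

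The plot of scaled FPKM by mouse shows that the 5 Serpina1 genes and Serpina3k share a low TAA group, and that on this scale the recovery values of Serpina3g lie above the controls. The plot of fold changes shows the same contrasts with the scaling changed.

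**Figure D2:**
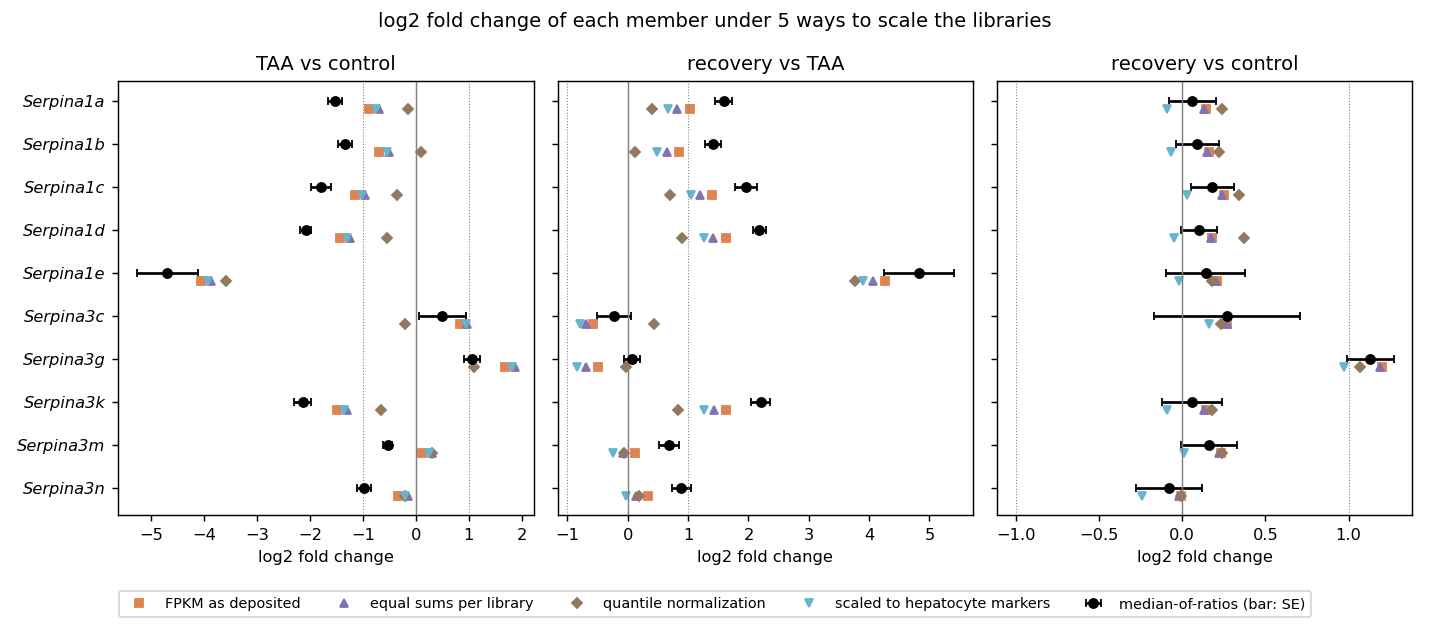
log2 fold change (x axis) of each member in the 3 comparisons, where black points with bars (SE) use median-of-ratios scaling and coloured symbols the 4 other scalings; dotted lines mark a 2-fold change. For TAA over control, Serpina1e lies between −4.69 and −3.59 and Serpina3g between 1.06 and 1.87, while Serpina1b (0.09, quantile), Serpina3c (−0.20, quantile) and Serpina3m (0.11 to 0.30) change sign with the scaling.

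Any single scaling factor for a library cancels in the ratio of its genes, apart from the added 0.1, so the balance among paralogs was examined as well. Quantile normalization is not of this kind and changes such ratios. Summed over the 5 genes, the Serpina1 cluster had 13225, 13951 and 14603 scaled FPKM in control mice, 4089, 3303 and 3316 in TAA mice and 15103, 14325 and 16076 in recovery mice. As a share of all scaled FPKM in the library this was 3.15% ± 0.154 for control, 1.43% ± 0.123 for TAA and 3.59% ± 0.205 for recovery mice (SD, n = 3 each). The Serpina3 cluster summed to 5523, 6764 and 6158 in control mice, 1689, 1516 and 1459 in TAA mice and 6222, 6341 and 6690 in recovery mice. Its share of all scaled FPKM was 1.39% ± 0.118, 0.623% ± 0.0204 and 1.52% ± 0.0466 in the same order (SD, n = 3 each). Both clusters thus took a smaller share of the library in every TAA mouse than in any control or recovery mouse, whatever single factor is applied to a library. With quantile normalization, the Serpina1 share was 1.74% to 1.97% in TAA mice and 2.62% or more in the others. For Serpina3 it was 0.739% to 0.797% against 1.11% or more.

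The members did not keep their proportions. Serpina1e made up 25.9%, 27.2% and 29.6% of the cluster in control mice but 9.33%, 1.88% and 4.10% in TAA mice, and 27.4%, 22.3% and 35.1% in recovery mice. No TAA mouse reached the lowest share of the other groups, also with quantile normalization (1.34% to 9.79% against 22.6% or more). Serpina1b took the larger part in TAA mice, 34.1%, 43.3% and 38.2%, against 26.0%, 24.5% and 23.3% in control mice and 23.7%, 25.3% and 22.8% in recovery mice. Mean shares of Serpina1a were 19.1%, 26.0% and 18.4% in control, TAA and recovery mice. Serpina1c (17.2%, 19.7% and 17.9%) and Serpina1d (11.6%, 10.7% and 11.4%) differed less between groups. For Serpina1d the direction between control and TAA mice turned with quantile normalization, to 11.2% and 11.5%.

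**Figure D3:**
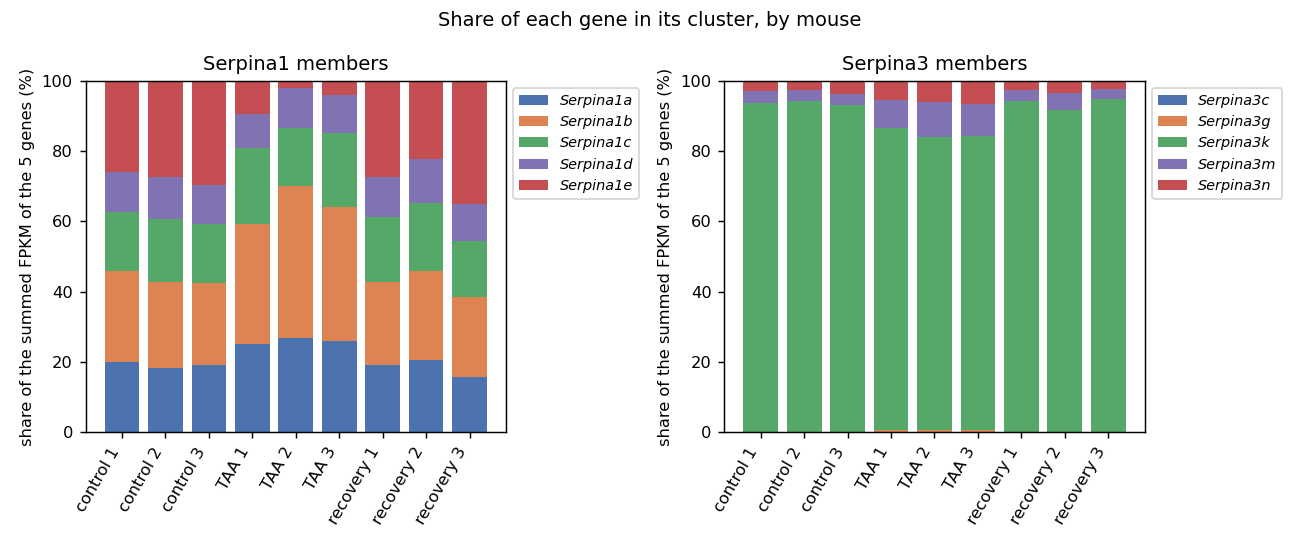
Share (y axis, percent) of each gene in the summed FPKM of its cluster, with 1 stacked bar per mouse (x axis), Serpina1 on the left and Serpina3 on the right. The Serpina1e share is 1.88% to 9.33% in TAA mice and 22.3% to 35.1% in the other mice, and the Serpina3k share is 83.4% to 86.0% in TAA mice and 91.7% to 94.8% in the others.

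In the Serpina3 cluster Serpina3k made up 93.7%, 94.1% and 93.1% in control mice and 86.0%, 83.4% and 83.8% in TAA mice. The remainder in TAA mice was mostly Serpina3m (a mean of 9.04%, against 3.29% in controls) and Serpina3n (6.01% against 3.01%). The stacked bars by mouse show both shifts, and the recovery bars resemble the control bars, with mean recovery shares of 93.5% for Serpina3k, 3.59% for Serpina3m and 2.74% for Serpina3n. With quantile normalization the shift was smaller, with mean Serpina3k shares of 92.1%, 87.4% and 92.3% in control, TAA and recovery mice.

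The log2 ratio of each gene to the most abundant other gene of its cluster was compared between groups. Abundance was the mean of all 9 libraries, in which Serpina1b (2802) only just exceeded Serpina1e (2788). The test was an exact two-sided permutation test over mice, whose smallest possible p for 3 against 3 is 0.10. The reference was Serpina1b for the Serpina1 genes and Serpina3k for the Serpina3 genes, while Serpina1b itself was set against Serpina1e and Serpina3k against Serpina3m. The log2 ratio of Serpina1e to Serpina1b was −0.00, 0.15 and 0.35 in control mice and −1.87, −4.52 and −3.22 in TAA mice. Serpina1e thus fell further than Serpina1b in each TAA mouse, by a mean of −3.37 (exact p = 0.10). For Serpina1d the ratio was −1.18, −1.01 and −1.08 in control mice and −1.78, −1.93 and −1.81 in TAA mice, a difference of −0.75 without overlap (exact p = 0.10). Differences for Serpina1c (−0.46) and Serpina1a (−0.20) were smaller, and those groups also did not overlap, though both genes share windows with others.

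Against Serpina3k, Serpina3g rose from a log2 ratio of −10.37, −10.35 and −10.51 in control mice to −7.39, −6.95 and −7.33 in TAA mice, a difference of 3.19 (exact p = 0.10). The ratio of Serpina3m to Serpina3k rose by 1.60 and that of Serpina3n by 1.16, again without overlap. Serpina3k itself had a log2 fold change of −2.13 as scaled. Serpina3m (−0.53) and Serpina3n (−0.98) were also lower on that scale, so their ratios rose because Serpina3k fell further. The 3.19 of Serpina3g joins its own rise (1.06) with the fall of Serpina3k. The ratio for Serpina3c differed by 2.63, but Serpina3c itself was near 0 throughout and the difference is mainly that of Serpina3k. The ratio of Serpina1b to Serpina1e and that of Serpina3k to Serpina3m are the inverse of ratios already given, which leaves 8 distinct ones. All 8 of 8 did not overlap between the TAA and control groups, each at the smallest p that the design allows (exact p = 0.10), so none could pass 0.05. Of all other tested genes, 91.8% had ratios to Serpina1b and 97.1% ratios to Serpina3k that did not overlap between these groups. The count is therefore near the background and says nothing particular about the members. These ratios are not independent either, since members share a reference.

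With quantile normalization 5 of the 8 ratios did not overlap between TAA and control mice, where 57.2% of all other tested genes did not in their ratio to Serpina1b and 71.3% in that to Serpina3k. Nothing particular to the members is read from this count. The difference was −3.69 for Serpina1e, −0.63 for Serpina1d, −0.46 for Serpina1c, 1.76 for Serpina3g and 0.96 for Serpina3m, without overlap. Groups overlapped for Serpina1a, Serpina3c and Serpina3n. The size of the shift against Serpina3k thus depends on the normalization.

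**Figure D4:**
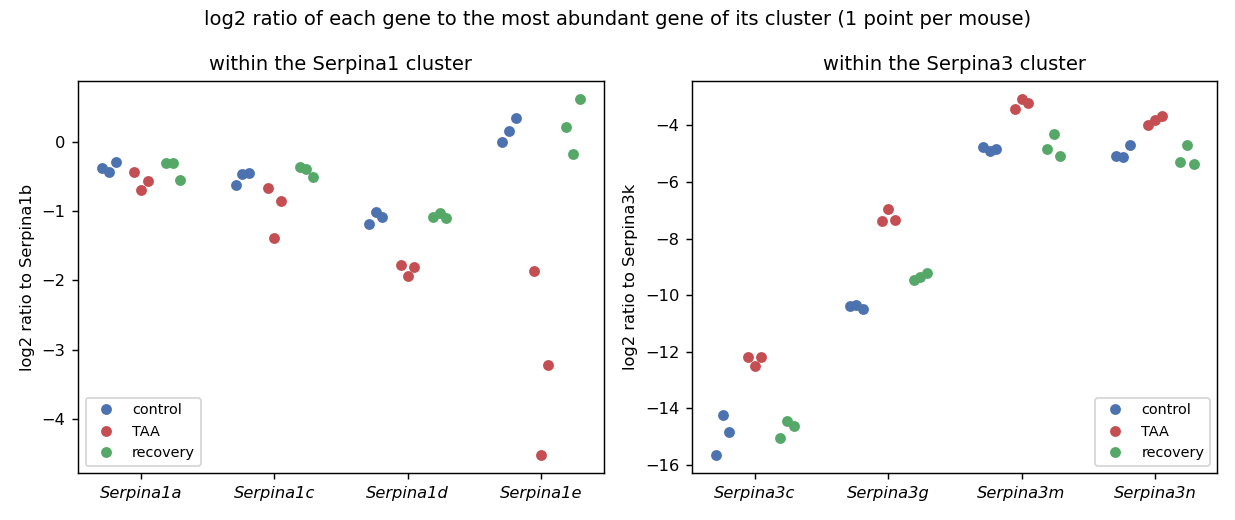
log2 ratio (y axis) of each gene to Serpina1b (left) or to Serpina3k (right) within the same library, with 1 point per mouse, coloured by group. Serpina1e lies between −4.52 and −1.87 in TAA mice and between −0.18 and 0.62 in the other mice, and Serpina3g is highest in TAA mice (−7.39 to −6.95), intermediate in recovery mice (−9.46 to −9.21) and lowest in control mice (−10.51 to −10.35).

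The recovery group was then compared with the TAA group. These values share the TAA mice with the comparison above, so the opposite signs in the 2 comparisons are not separate evidence. All 5 Serpina1 genes and Serpina3k were up-regulated in the recovery group, 6 of 10 members, where 7.12% of all tested genes were (1003). None was down-regulated, where 14.3% of all tested genes were (2014), and in limma no member was lower at an unadjusted p under 0.05. The median log2 fold change was 1.96 for the Serpina1 genes and 0.68 for the Serpina3 genes, and −0.01 over all tested genes. With FPKM as deposited 5 members were higher (409 of all genes higher and 3728 lower). Equal sums and hepatocyte scaling each gave 4 higher (305 and 244 of all genes, with 4854 and 6057 lower), and quantile normalization gave 1, Serpina1e (1171 higher and 1407 lower).

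Serpina1e was at 4141, 3195 and 5639 in recovery mice. The lowest of these was above every TAA mouse, and recovery mouse 3 was the highest of all 9 mice. The recovery mean was 4325 ± 1232 (SD, n = 3). On the log scale of the fit the rise was 28.4-fold (log2 fold change 4.83, SE 0.58, adjusted p = 0.00036), with 5.51 without TAA mouse 1 and 4.21 without TAA mouse 2, and the other scalings gave 3.77 to 4.27.
Serpina3k was at 5858, 5813 and 6340 in recovery mice, without overlap with TAA mice, and 4.58-fold higher (SE of the log2 fold change 0.15, adjusted p = 2.7e-05). With quantile normalization the log2 fold change was 0.84, under 2-fold.
The remaining Serpina1 genes rose by 1.41 (Serpina1b), 1.59 (Serpina1a), 1.96 (Serpina1c) and 2.18 (Serpina1d) on the log2 scale, with adjusted p from 8.9e-06 to 0.00011 in limma. With quantile normalization these 4 changes were 0.12, 0.40, 0.70 and 0.90, all under 2-fold, and Serpina1b was under 2-fold with each other scaling (0.49 to 0.85). Serpina1a was under 2-fold with equal sums (0.82) and hepatocyte scaling (0.66).

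For Serpina3g the difference from the TAA group rests on the scaling. Recovery mice had 8.22, 8.66 and 10.6 scaled FPKM, within and just above the range of the TAA mice (log2 fold change 0.07, SE 0.14, adjusted p = 0.71). As deposited, recovery mice had 7.39 to 9.60 FPKM, all below the 10.4 to 13.4 of TAA mice (−0.49, adjusted p = 0.017). Values were also negative with equal sums (−0.69, adjusted p = 0.0023), hepatocyte scaling (−0.85, adjusted p = 0.00081) and quantile normalization (−0.03, adjusted p = 0.87). None passed the fold threshold, and no direction can be given.
Serpina3n was at 149, 225 and 153 in recovery mice, above the TAA mice (log2 fold change 0.89, SE 0.16, adjusted p = 0.0024, under 2-fold), with −0.03 under hepatocyte scaling.
Serpina3m was at 208, 294 and 186 in recovery mice, with mouse 2 the highest for both genes. Its log2 fold change of 0.68 (SE 0.17, adjusted p = 0.011) was under 2-fold and turned negative with quantile normalization (−0.06), equal sums (−0.08) and hepatocyte scaling (−0.24). Serpina3c gave −0.23 (SE 0.28, adjusted p = 0.52), and 0.43 with quantile normalization. As deposited, its recovery values of 0.0652 to 0.140 lay under the 0.156 to 0.273 of TAA mice (−0.57, adjusted p = 0.1). The value was −0.70 with equal sums (adjusted p = 0.049) and −0.79 with hepatocyte scaling (adjusted p = 0.035). None of these was called, and no direction can be given.

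Of the 8 distinct within-library ratios, 7 did not overlap between the recovery and TAA groups (exact p = 0.10). Of all other tested genes, 93.2% had ratios to Serpina1b and 97.8% ratios to Serpina3k without overlap here, so this count is also near the background. The ratio of Serpina1a to Serpina1b overlapped, with a difference of 0.17 (exact p = 0.20). The ratio of Serpina1e to Serpina1b was 0.21, −0.18 and 0.62 in recovery mice, a rise of 3.42 from the TAA group. The log2 ratio of Serpina3g to Serpina3k fell by 2.13, to −9.46, −9.37 and −9.21, still above that of all control mice. This fall is mainly the rise of Serpina3k, which was 4.58-fold as scaled, where Serpina3g itself had a log2 fold change of 0.07. As deposited, the log2 fold changes were 1.63 for Serpina3k and −0.49 for Serpina3g. With quantile normalization 7 of 8 did not overlap, where 55.2% (Serpina1b) and 78.3% (Serpina3k) of all other tested genes did not, and nothing particular to the members is read from this. The change was then 3.65 for Serpina1e and −0.88 for Serpina3g.

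Serpina3g was the called member between recovery and control mice, 1 of 10 higher, where 0.582% of all tested genes were (82). None of the 10 was lower in limma, where 0.412% were (58), and none was lower at an unadjusted p under 0.05. The 8.22, 8.66 and 10.6 of recovery mice all exceeded the 3.80, 4.77 and 3.84 of control mice, a 2.18-fold difference (log2 fold change 1.13, SE 0.14, adjusted p = 0.019). The call did not hold with a pseudocount of 1 (0.98), with hepatocyte scaling (0.97) or without a filter on low values (adjusted p = 0.054). It was also lost without control mouse 1 (adjusted p = 0.053), control mouse 3 (0.068), recovery mouse 2 (0.085) or recovery mouse 3 (0.067), with log2 fold changes from 1.02 to 1.16.

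The other 9 members had log2 fold changes between −0.08 and 0.27 with adjusted p of 0.45 to 0.86, which does not show that they were equal. Serpina1b was at 3585, 3629 and 3661 in recovery mice and Serpina1c at 2787, 2775 and 2571, both above all controls, but by log2 fold changes of only 0.09 (SE 0.13) and 0.18 (SE 0.13). With hepatocyte scaling the sign of Serpina1a (−0.09), Serpina1b (−0.07), Serpina1d (−0.05), Serpina1e (−0.02) and Serpina3k (−0.09) turned. The remaining recovery values were 2890, 2940 and 2501 for Serpina1a and 1699, 1787 and 1705 for Serpina1d, both overlapping the controls. Of the 8 distinct within-library ratios, 1 did not overlap between the recovery and control groups, that of Serpina3g to Serpina3k (a difference of 1.06, exact p = 0.10, and 0.89 with quantile normalization). Of all other tested genes, 32.3% had ratios to Serpina1b and 23.6% ratios to Serpina3k without overlap between these groups. With quantile normalization the count was 1 of 8 again, and these shares were 37.8% and 37.5%.

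FPKM are per length of gene, so the listed levels can be put in order. Shared reads and overlapping gene models leave the order among the Serpina1 genes uncertain, and the division between Serpina3k and Serpina3m as well. In control mice the order of mean scaled FPKM was Serpina3k (5758), Serpina1e (3847), Serpina1b (3417), Serpina1a (2654), Serpina1c (2398), Serpina1d (1610), Serpina3m (202), Serpina3n (185), Serpina3g (4.13) and Serpina3c. Of neighbours in this order, Serpina3m and Serpina3n overlapped, and so did no other pair except Serpina1e and Serpina1b, where the lowest Serpina1e mouse (3423) fell between Serpina1b mice. In the TAA group Serpina1b (1363) and Serpina3k (1313) led and overlapped, followed by Serpina1a (925) and Serpina1c (707), which also overlapped, Serpina1d (381) and Serpina1e (193). The Serpina1e values overlapped those of Serpina1d, Serpina3m (140) and Serpina3n (92.9). The order of the 6 most abundant genes in the recovery group was that of the control group, with overlap between Serpina1e (4325) and Serpina1b (3625) and between Serpina1a (2777) and Serpina1c (2711).

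The genes whose pattern over the 9 libraries was most like that of a member were sought among 11092 other genes that averaged 1 FPKM or more, by Pearson's r of log2(scaled FPKM + 0.1). The libraries fall into groups, so r describes the pattern only and carries no p. For Serpina1b they were Cbs (r = 0.998), which makes cystathionine from homocysteine, Cpox (0.998), a haem synthesis enzyme, and Acot12 (0.997), an acyl-CoA thioesterase. Cbs was at 113 ± 2.51 in control, 39.4 ± 2.62 in TAA and 118 ± 5.15 in recovery mice (SD, n = 3 each). For Serpina1e they were Paqr9 (0.994), the complement gene C6 (0.994) and Cyp8b1 (0.992), the sterol hydroxylase that sets the balance of bile acids. Cyp8b1 was at 427 ± 63.9, 14.9 ± 12.3 and 323 ± 66.9 in the same order of groups (SD, n = 3 each). For Serpina3k they were Ogdh (0.998), a citric acid cycle enzyme, the mannose-binding lectin gene Mbl1 (0.997) and Elac1 (0.997), with Mbl1 at 34.7 ± 2.21, 11.4 ± 0.558 and 35.3 ± 4.12 (SD, n = 3 each).

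Other genes of the same pathways were read from lists, and in each called gene named from them the mice of the groups compared did not overlap. The other clade A serpins hold 17 genes, of which 9 were tested. TAA mice had 2 up-regulated and 3 down-regulated against control mice (3 and 3 with FPKM as deposited), and the list median was −0.27 on the log2 scale, against 0.02 over all tested genes. Serpina5, the protein C inhibitor, had the largest rise (log2 fold change 1.97, adjusted p = 0.0041) from a level near 0 (0.0123 ± 0.0109 to 0.377 ± 0.208, SD, n = 3 each). It passed the filter only through its TAA mice (0.0407 FPKM on average in the other 6), so it had to differ and carries no weight in these counts. Further, Serpina7, thyroxine-binding globulin, rose 3.29-fold to 39.9 ± 4.81 (SD, n = 3). Serpina12, known as vaspin, had the largest fall (−4.04, adjusted p = 2.4e-05), from 3.90 ± 0.495 to 0.150 ± 0.0773 (SD, n = 3 each). The most abundant gene of the list, Agt, which encodes angiotensinogen, fell from 251 ± 18.7 to 79.5 ± 10.5 (SD, n = 3 each; −1.66, adjusted p = 3.7e-05, −0.83 with equal sums). Recovery mice had 3 higher and 2 lower than TAA mice (2 and 4 with FPKM as deposited, median −0.15 against −0.01). The 2 lower again hold Serpina5. The largest changes were in Serpina12 (3.98) and Serpina7 (−2.21). Relative to control mice they had 0 higher in limma (2 at an unadjusted p under 0.05) and 1 lower (median −0.06 against 0.01), which was Serpina6, corticosteroid-binding globulin (−1.34, adjusted p = 0.046, no longer called with equal sums, nor when a mouse other than control mouse 1 was left out).

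Of 15 serpins of other clades 14 were tested. TAA mice had 4 higher and 3 lower than controls (median 0.46 against 0.02, and 7 higher and 2 lower with FPKM as deposited). Of the 4 higher, Serpini1 and Serpinb9b passed the filter only through TAA mice (0.0826 and 0.0215 FPKM on average in the other 6) and had to differ. Serpinh1, the collagen chaperone Hsp47, rose most (log2 fold change 2.80, SE 0.55, adjusted p = 0.0037), from 1.93 ± 0.160 to 17.3 ± 11.5, with 3.51 without TAA mouse 2, and Serpinf1, pigment epithelium-derived factor, fell most (−1.89, SE 0.14, adjusted p = 4.5e-05), from 135 ± 0.581 to 36.9 ± 7.57 (SD, n = 3 each). Recovery mice had 4 higher and 5 lower than TAA mice (2 and 6 with FPKM as deposited, median −0.22 against −0.01). The 5 again hold Serpini1 and Serpinb9b, which had to be lower. The largest changes were in Serpinf1 (2.29) and Serpine2 (−2.36), which encodes protease nexin-1. Relative to controls, recovery mice had 0 higher in limma (5 at an unadjusted p under 0.05) and 1 lower, with a median of 0.28 against 0.01. The lower gene was Serpine2, at 7.28, 5.55 and 7.22 in control mice and 1.81, 1.26 and 1.68 in recovery mice (log2 fold change −2.02, SE 0.18, adjusted p = 0.0097). The most abundant gene, antithrombin (Serpinc1), was at 458 ± 138, 266 ± 29.3 and 565 ± 44.1 in control, TAA and recovery mice (SD, n = 3 each), and its rise from TAA to recovery mice (1.09, adjusted p = 0.00022) turned sign with quantile normalization (−0.10).

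Of 10 proteases known as targets of alpha-1-antitrypsin or antichymotrypsin, 4 were tested. Prtn3, proteinase 3 of neutrophils, was higher in TAA mice than in controls (log2 fold change 2.49, SE 0.36, adjusted p = 0.0009), at 1.13 ± 0.126 against 0.136 ± 0.108 (SD, n = 3 each). Lower were plasma kallikrein, Klkb1 (−2.27, adjusted p = 3.5e-05), and prothrombin, F2 (−1.47, adjusted p = 4.8e-05, −0.24 with quantile normalization), the most abundant of the list at 612 ± 3.32 in controls and 222 ± 27.8 in TAA mice (SD, n = 3 each). The list median was −0.92 against 0.02, and with FPKM as deposited 1 was higher and 1 lower. Between recovery and TAA mice 3 were higher, led by Klkb1 (1.70, 0.78 with hepatocyte scaling), and 1 lower, Prtn3 (−2.66), with a median of 1.36 against −0.01 (1 and 1 with FPKM as deposited). Against controls none of the 4 was called in limma in either direction (1 higher and 1 lower at an unadjusted p under 0.05, median −0.11 against 0.01). Neutrophil elastase, Elane, did not pass the filter, with 0.0719 ± 0.0171, 0.0909 ± 0.0390 and 0.130 ± 0.0852 in control, TAA and recovery mice (SD, n = 3 each), and Prss1 was at 0 in all libraries.

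The 12 genes for handling of alpha-1-antitrypsin in the endoplasmic reticulum (cargo receptors, chaperones and degradation factors) were all tested, and none was called in limma in any of the 3 comparisons, nor with FPKM as deposited. For TAA against control, equal sums gave 4 higher, hepatocyte scaling 2 and quantile normalization 1. For recovery against TAA, equal sums and hepatocyte scaling each gave 2 lower. Whether any of these genes differed thus rests on the scaling. At an unadjusted p under 0.05, 1 was higher and 3 lower in TAA mice than in controls, 3 higher and 2 lower in recovery than in TAA mice, and 1 higher and 2 lower in recovery mice than in controls. Medians were −0.07, 0.12 and 0.04, against 0.02, −0.01 and 0.01 over all genes. The most abundant gene, Calr (calreticulin), was at 166 ± 5.44, 165 ± 8.78 and 188 ± 6.69 in control, TAA and recovery mice (SD, n = 3 each), while its log2 fold change for TAA over control was −0.01 as scaled and 0.63 as deposited.

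Regulators of these genes were examined from 4 lists. Of 9 hepatocyte transcription factors known from the Serpina1 promoter, all tested, 2 were down-regulated in TAA mice and none was up-regulated in limma (1 higher at an unadjusted p under 0.05, median −0.40 against 0.02, and 1 higher and 0 lower with FPKM as deposited). Cebpa fell from 196 ± 7.19 to 71.1 ± 11.2 (log2 fold change −1.48, SE 0.13, adjusted p = 7.3e-05), and Hnf4a, the most abundant, from 215 ± 23.0 to 98.8 ± 7.72 (−1.11, SE 0.11, adjusted p = 0.00015; SD, n = 3 each). Both were under 2-fold with each other scaling (−0.65 to −0.84 for Cebpa and −0.29 to −0.48 for Hnf4a). Hnf4a was higher in recovery than in TAA mice (1.07, adjusted p = 0.00068, 0.14 with hepatocyte scaling, 0.51 as deposited and 0.91 without recovery mouse 1), and in limma none was lower (0 at an unadjusted p under 0.05, median 0.42 against −0.01). Against controls none was called in limma (3 higher and 3 lower at an unadjusted p under 0.05, median 0.02 against 0.01).

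Of 14 genes of cytokine and STAT3 signalling in the acute phase, 12 were tested. The interleukin-6 receptor gene Il6ra was lower in TAA mice (log2 fold change −1.83, SE 0.13, adjusted p = 3.5e-05), at 4.13, 3.98 and 3.88 against 12.4, 17.1 and 14.1 in control mice, and the oncostatin M receptor gene Osmr was higher (1.02, SE 0.20, adjusted p = 0.0042), from 1.71 ± 0.392 to 3.53 ± 0.539 (SD, n = 3 each), with 0.78 under quantile normalization and no call without control mouse 1, TAA mouse 1 or TAA mouse 2. The median was −0.11 against 0.02, and with FPKM as deposited 3 were higher and 1 lower. Between recovery and TAA mice 3 were higher (0 as deposited, with 2 lower, and 0 with hepatocyte scaling, with 5 lower), led by Il1b (1.41, adjusted p = 0.0034, 0.52 with hepatocyte scaling), and 1 was lower, Tnf (−1.29, adjusted p = 0.003, −0.54 with quantile normalization), with a median of 0.07 against −0.01. Against controls none was called in limma (0 higher and 2 lower at an unadjusted p under 0.05, median −0.10 against 0.01). Il6 and Osm did not pass the filter. Cebpb was the most abundant, at 108 ± 17.8, 72.9 ± 16.0 and 108 ± 13.8 in control, TAA and recovery mice (SD, n = 3 each), and its fall in TAA mice turned to 0.07 on the log2 scale with FPKM as deposited.

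Of 9 growth hormone signalling genes, all tested, 3 were lower in TAA mice and none higher in limma (2 higher at an unadjusted p under 0.05, median −0.89 against 0.02, and 2 higher and 1 lower with FPKM as deposited). Igfals had the largest fall (log2 fold change −1.65, SE 0.37, adjusted p = 0.0069), at 12.4, 32.1 and 13.1 in control mice and 5.82, 6.82 and 4.13 in TAA mice. Igf1, the most abundant, fell from 159 ± 12.3 to 59.9 ± 7.22 (−1.41, adjusted p = 5.6e-05) and the receptor gene Ghr from 135 ± 16.1 to 48.5 ± 3.36 (−1.47, adjusted p = 4.2e-05; SD, n = 3 each). All 3 were under 2-fold with hepatocyte scaling (−0.88, −0.64 and −0.70). Between recovery and TAA mice 3 were higher, led by Bcl6 (1.77, 0.87 with hepatocyte scaling), and none was lower in limma (1 and 1 with FPKM as deposited, 1 lower at an unadjusted p under 0.05, median 0.59 against −0.01). Against controls none was called in limma (1 higher and 3 lower at an unadjusted p under 0.05, median −0.17 against 0.01).

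Serpina3g is known to respond to interferon gamma and NF-kB, and 11 genes of these responses were all tested. In TAA mice 3 were higher (6 with FPKM as deposited), Cxcl10 (log2 fold change 2.25, SE 0.21, adjusted p = 0.0001), Relb (1.95) and Nfkb2 (1.13, and 0.98 without control mouse 2), and none was lower in limma (1 at an unadjusted p under 0.05, median 0.73 against 0.02). In recovery mice the same 3 were lower than in TAA mice, Cxcl10 most (−1.53), with Relb at −1.19 and under 2-fold with quantile normalization (−0.88), and none was higher in limma (1 at an unadjusted p under 0.05, median −0.07 against −0.01). Against controls none was called in limma, but 6 of 11 were higher at an unadjusted p under 0.05 and 0 lower, with a median of 0.51 against 0.01. The most abundant, Nfkbia, was at 23.8 ± 1.72, 17.1 ± 1.43 and 28.3 ± 2.70 in control, TAA and recovery mice (SD, n = 3 each), and its fall in TAA mice turned to 0.17 on the log2 scale with FPKM as deposited.

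Of 18 other acute phase proteins, all tested, 2 were higher and 6 lower in TAA mice, with a median of −0.57 against 0.02. This balance rests on the scaling, with 2 higher and 2 lower as deposited and 7 higher and 2 lower with quantile normalization. Lcn2, lipocalin-2, rose most (log2 fold change 2.70, SE 0.66, adjusted p = 0.01), from 2.76, 4.91 and 20.4 in control mice to 29.1, 51.7 and 53.5 in TAA mice. The value was 3.51 without control mouse 3 and 2.10 without control mouse 1. Saa1, serum amyloid A1, fell most (−2.52, SE 0.77, adjusted p = 0.026). Saa1 stood at 55.1, 121 and 639 in control mice and 29.9, 23.5 and 31.5 in TAA mice, so control mice differed widely, and the call was lost with each other scaling (−1.70 to −1.93) and when any 1 of the TAA mice was left out. Without control mouse 3 the value was −1.53, and without control mouse 1 it was −3.30. Between recovery and TAA mice 5 were higher, led by Orm3 (1.90), and 1 lower, Lcn2 (−2.58, and −1.88 without recovery mouse 1), with a median of 0.77 against −0.01 (3 and 2 with FPKM as deposited, 1 and 3 with hepatocyte scaling). Against controls none was called in limma (2 higher and 0 lower at an unadjusted p under 0.05, median 0.14 against 0.01). Hpx, haemopexin, was the most abundant, at 2032 ± 161, 1619 ± 124 and 2162 ± 120 in control, TAA and recovery mice (SD, n = 3 each), with 0.31 in place of −0.33 for TAA over control on the log2 scale when taken as deposited.

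Markers of liver cell types were read beside these results, and their part in them was not tested. Hepatocyte markers are the closest to the members by origin. Of 8, 7 were tested, Tf not being listed under that symbol, and 2 were lower in TAA mice with none higher in limma (0 at an unadjusted p under 0.05, median −0.75 against 0.02, and 0 and 0 with FPKM as deposited). Quantile normalization turned this, with 2 higher and 0 lower. Apoa1 fell most (log2 fold change −1.55, adjusted p = 0.00015, −0.21 with quantile normalization). Their summed scaled FPKM was 39023, 41885 and 37366 in control mice, 30301, 27018 and 22797 in TAA mice and 46500, 48179 and 49319 in recovery mice, with Alb the most abundant. Albumin itself was at 28326 ± 1854 in control and 20463 ± 2960 in TAA mice (SD, n = 3 each; −0.48, SE 0.28, adjusted p = 0.19, and 0.16 as deposited). Recovery mice had 3 higher than TAA mice (1 with FPKM as deposited, and 0 higher and 1 lower with quantile normalization), led by Apoa1 (2.15), and none lower in limma (0 at an unadjusted p under 0.05, median 0.87 against −0.01), and none was called in limma against controls (1 higher at an unadjusted p under 0.05, median 0.12 against 0.01). Serpinc1 is also among the serpins of other clades.

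Markers of stellate cells and myofibroblasts were higher in TAA mice, 6 of 6, led by Col1a1, also the most abundant (log2 fold change 5.91, SE 0.18, adjusted p = 1.7e-06). Their sum was 11.5, 12.2 and 12.5 in control mice, 120, 77.8 and 125 in TAA mice and 10.5, 14.5 and 17.0 in recovery mice. Recovery mice had 5 lower than TAA mice, Col1a1 most (−4.92), and none was called against controls in limma (2 higher at an unadjusted p under 0.05). Of 5 cholangiocyte markers, 5 were higher in TAA mice than in controls and 4 lower in recovery than in TAA mice, with Spp1 the most abundant and the most changed (4.31 and −3.59), and Epcam was higher in recovery mice than in controls (1.65, adjusted p = 0.031, with the call lost when any 1 of the mice was left out). Their sum was 18.7, 15.7 and 20.9 in control mice, 442, 301 and 295 in TAA mice and 27.9, 29.5 and 38.4 in recovery mice.

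Neutrophils are the source of the elastase that alpha-1-antitrypsin inhibits. Of 8 neutrophil markers 4 were tested, and all 4 were higher in TAA mice (2 with quantile normalization), led by S100a8, the most abundant (7.99-fold, adjusted p = 0.0055). Its log2 fold change was 2.17 without control mouse 1, where S100a8 was lowest (0.311, against 1.98 and 2.48 in the other controls). Of the 4, Camp passed the filter only through TAA mice (0.0122 FPKM on average in the other 6), so it had to differ. Recovery mice had 3 lower than TAA mice, 1 of them Camp, which had to be, with S100a8 the most (−2.30 on the log2 scale), and none was called against controls in limma (0 at an unadjusted p under 0.05). Their sum was 0.877, 4.27 and 3.99 in control mice, 15.8, 14.4 and 20.9 in TAA mice and 3.13, 5.09 and 4.01 in recovery mice, with Ly6g, Mpo, Ngp and Camp at 0 in some libraries. Of 6 macrophage markers 2 were higher in TAA mice (4 with FPKM as deposited), led by Lyz2, the most abundant (1.42, adjusted p = 0.00025), and Lyz2 was lower in recovery than in TAA mice (−1.30), with none called against controls in limma (0 at an unadjusted p under 0.05). Their sum was 95.3, 155 and 158 in control mice, 258, 195 and 220 in TAA mice and 169, 180 and 228 in recovery mice.

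Lymphocyte markers were low. Of 6 T and NK cell markers Cd8a was higher in TAA mice (log2 fold change 1.03, adjusted p = 0.01, 0.11 with quantile normalization and 0.88 without control mouse 1), and none was called in limma in the other comparisons. With FPKM as deposited 3 were higher in TAA mice than in controls and 3 lower in recovery than in TAA mice, and equal sums gave 5 and 3. Quantile normalization gave 0 higher in TAA mice than in controls, and 1 higher and 0 lower in recovery than in TAA mice. At an unadjusted p under 0.05, 1 was higher and 2 lower in recovery than in TAA mice, and 1 was higher than in controls. Their sum was 1.48, 2.29 and 2.28 in control mice, 3.62, 3.15 and 2.74 in TAA mice and 1.38, 2.56 and 3.23 in recovery mice, with Nkg7 the most abundant. None of 4 B cell markers was called in limma in any comparison (1 higher in TAA mice at an unadjusted p under 0.05), whereas 2 were higher in TAA mice than in controls and 2 lower in recovery than in TAA mice as deposited, and 4 and 4 with equal sums, with Cd79b the most abundant and a sum of 0.714, 2.43 and 1.77, then 3.21, 1.68 and 2.73, then 0.794, 2.01 and 2.13 in control, TAA and recovery mice. None of 5 endothelial markers was called in limma either, though 1 was higher in TAA mice with equal sums and with hepatocyte scaling (at an unadjusted p under 0.05, 1 lower in TAA mice, and in recovery mice 4 higher than TAA mice and 1 higher than controls). Clec4g was the most abundant of these, and their sum was 48.2, 87.8 and 85.8 in control mice, 69.3, 52.4 and 60.5 in TAA mice and 80.5, 83.5 and 89.6 in recovery mice.

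Markers of tissues next to the liver were read as well. Skeletal muscle markers summed to 31.1 in TAA mouse 3 and to at most 0.0746 in the other mice, with Acta1 the most abundant, all 5 at 0 in some libraries and none called in limma (0 at an unadjusted p under 0.05 in each comparison). These markers passed the filter only through this mouse. Of 5 pancreatic acinar markers 1 was tested, Cela2a, the most abundant, and it was not called in limma (0 at an unadjusted p under 0.05 in each comparison). Their sum was 0.0533 to 0.272 in TAA mice and at most 0.405 in the others, with Pnlip and Amy2a5 at 0 in all libraries.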

How the data were processed

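Liver mRNA of 9 mice was sequenced as paired-end reads. The authors mapped them to GRCm38 with HISAT2 (version 2.2.1), counted them per gene with featureCounts (version 1.5.0-p3) and deposited FPKM for each library. The members and gene lists were chosen with earlier results of these data known. FPKM were scaled by median of ratios over genes above 0 in all 9 libraries, a pseudocount of 0.1 was added, and genes with a mean deposited FPKM under 0.1 were left out. Each pair of groups was fitted over all 14094 remaining genes in limma (version 3.58.1, R 4.3.3, with a mean-variance trend), with Benjamini-Hochberg adjustment. Calls needed an adjusted p under 0.05 and a change of 2-fold or more. The fit and the depth estimate were tested on simulated data. Ratios between paralogs used exact two-sided permutation tests.

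The estimated depth of the libraries ran from 27.0 to 40.7 M fragments, where 55.8% to 63.2% of low values came out whole within 0.08, against 16% by chance. From each list the called gene with the largest absolute log2 fold change in each direction and the most abundant gene are named. Relb, Nfkb2, Elane, Ghr, Il6 and Osm, and the Serpina7 value for TAA against control, were chosen after their values were seen. Alternatives were pseudocounts of 1 and 0.01, no filter, a minimum mean of 1 FPKM, 3 other scalings, a fit of all 9 libraries, no trend, limma's treat, replicate number as a block and leaving out each mouse. Scaling to hepatocyte markers, and quantile normalization of ratios and shares, were chosen after seeing the data. Sequences were aligned with MAFFT (version 7.526), and Python 3.11.15, pandas 2.3.3, numpy 2.4.6 and matplotlib 3.10.9 were used for the rest.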

Additional observations from a re-analysis of the deposited data

How the results depend on the processing

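For TAA against control, 99 of 119 log2 fold changes of members under other settings kept their direction and side of the threshold, 14 kept the direction but were no longer called, and 6 reversed. For recovery against TAA these counts were 99, 11 and 9 of 119, and for recovery against control 109, 5 and 5 of 119. No filter, the minimum mean of 1 FPKM, the fit of all 9 libraries, no trend, treat and the replicate block leave the log2 fold change itself as it was. These settings could not reverse a value, so the pooled counts do not measure how far calls hold when the scaling changes. Every reversal came with FPKM as deposited, equal sums, hepatocyte scaling or quantile normalization. Why the scalings differ was not tested. Shares of members within their cluster cannot change with FPKM as deposited or equal sums, since a factor for a library cancels. With quantile normalization, chosen after seeing the data, shares of Serpina3 members in control and TAA mice moved by more than 1 SD, to 92.1% and 87.4% for Serpina3k and 4.02% and 7.46% for Serpina3m. The Serpina1d share in TAA mice also moved by more than 1 SD, to 11.5%, above its 11.2% in control mice. Ratios to Serpina3k moved likewise for TAA against control, to 1.76 (Serpina3g), 0.96 (Serpina3m), 0.47 (Serpina3n) and 0.46 (Serpina3c).

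Of the 6 members lower in TAA mice than in controls, quantile normalization left 1 and equal sums 3, and leaving out a mouse gave 6 to 7 (7 without control mouse 1 or TAA mouse 3, through Serpina3n). Among the fits that left out a mouse, the value of Serpina1e moved most, from −5.38 without TAA mouse 1 to −4.07 without TAA mouse 2. The 1 member higher became 0 with a pseudocount of 1 and with treat, and ranged from 0 to 1 over the fits that left out a mouse (0 without TAA mouse 2). Values that reversed for TAA against control were Serpina1b (0.09) and Serpina3c (−0.20) with quantile normalization, and Serpina3m as deposited (0.11), with quantile normalization (0.30), equal sums (0.30) and hepatocyte scaling (0.25).

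Of the 6 members higher in recovery than in TAA mice, quantile normalization left 1. Reversed values were Serpina3c (0.43, quantile), Serpina3g (−0.49 as deposited, −0.03 quantile, −0.69 equal sums, −0.85 hepatocyte scaling), Serpina3m (−0.06 quantile, −0.08 equal sums, −0.24 hepatocyte scaling) and Serpina3n (−0.03, hepatocyte scaling). Leaving out a mouse gave −0.04 to 0.18 for Serpina3g, negative without TAA mouse 3 or recovery mouse 3.

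The 1 member higher in recovery than in control mice, Serpina3g, became 0 with a pseudocount of 1, with no filter, with treat, with the replicate block and with hepatocyte scaling, and ranged from 0 to 1 when a mouse was left out. Hepatocyte scaling reversed Serpina1a (−0.09), Serpina1b (−0.07), Serpina1d (−0.05), Serpina1e (−0.02) and Serpina3k (−0.09). Leaving out a mouse gave −0.07 to 0.34 for Serpina1e, −0.17 to 0.69 for Serpina3c, −0.01 to 0.14 for Serpina3k, −0.04 to 0.30 for Serpina3m and −0.27 to 0.05 for Serpina3n, so no direction can be given for these 5.

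The replicate number was used as a block because the titles number the mice of each group 1 to 3. With this block the Serpina3g value for recovery against control had an adjusted p = 0.064, where the other settings except treat gave 0.0037 to 0.054. The mice were not treated as paired, since deviations of mice with the same number had r of −0.07 to 0.12 across genes and 1 of 9 was highest with its own number. Depth limits Serpina3c, which had an estimated 0 to 24 fragments per library.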
